A study of Mus musculus with 17 samples.

Results

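The genes described here are the 8 members of the Snail, Twist, Zeb and Prrx families that are best known from mesenchymal cells: Snai1, Snai2, Twist1, Twist2, Zeb1, Zeb2, Prrx1 and Prrx2. They were chosen by symbol, and each symbol matched exactly 1 of the 35896 gene identifiers in the count tables. All 8 passed the filter on low counts that left 13923 genes for testing. Expression was measured by RNA-seq in mouse pancreatic stellate cells, the fibroblast-like cells of the pancreas that become matrix-producing fibroblasts in pancreatic cancer.

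Cells of 2 lines, PSC4 and PSC5, both wild type (WT) and from the C57BL/6J strain, were embedded in Matrigel, a basement membrane gel, and kept for 4 days in 1 of 4 media. The 5 control libraries came from cells in control medium alone. The other media were control medium with 20 ng/mL TGF-beta (4 libraries), medium conditioned by pancreatic tumour organoids (CM, 4 libraries), and the same kind of conditioned medium to which 300 nM of the ERBB receptor inhibitor neratinib was added (4 libraries). No age or sex is labelled, and replicates are successive passages of the same 2 lines. The p-values therefore measure the spread between cultures of these 2 lines, not between animals. In the main fit of single genes, a term for the line takes out a constant difference between the lines. In both CM groups the replicate number, the passage and the medium code of the labels (T6 or T8) go together: replicate 1 is always T8 and replicate 2 always T6, so those 3 cannot be told apart.

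Epithelial-mesenchymal transition factors are transcription factors that silence epithelial genes and turn on mesenchymal ones. Snail and Zeb proteins are zinc finger repressors that bind a shared E-box, CAGGTG, and recruit histone deacetylases and demethylases. Twist proteins are basic helix-loop-helix factors that pair with E proteins, and ID proteins compete for those E proteins. Prrx proteins are homeodomain factors of limb, craniofacial and other connective tissue mesenchyme. Stellate cells are mesenchymal to begin with, so these genes are expressed in them without any transition from an epithelial state.

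Library totals ran from 22168953 to 29421447 counts, and 3 counts, taken here as the floor of detection, stood for 0.101 to 0.137 CPM, the count of a gene scaled to its library's total. All 10 stellate and fibroblast markers were above that floor in every library, with a summed level of 5450 to 6980 CPM in control, 9910 to 20400 CPM with TGF-beta, 5610 to 6750 CPM in CM and 4070 to 6780 CPM in CM with neratinib. The sum of 6 smooth muscle and pericyte markers was 357 to 590 CPM in control, 455 to 655 CPM with TGF-beta, 163 to 303 CPM in CM and 95.4 to 278 CPM in CM with neratinib. Of 7 macrophage and leukocyte markers, Adgre1 and Tyrobp had 0 counts in all 17 libraries and Ptprc reached 1 count at most, while Cd68 (1.37 to 12.3 CPM) and Csf1r (0.325 to 1.3 CPM) were at 0 in none. Their sum was 2.08 to 3.67 CPM, except in the CM with neratinib library labelled PSC4 replicate 1. There it was 13.5 CPM, with Cd68 alone at 12.3 CPM. The sum of 6 endothelial markers was 3.99 to 8.22 CPM in control, 7.61 to 23.1 CPM with TGF-beta, 2.41 to 5.05 CPM in CM and 3.63 to 32 CPM in CM with neratinib, the highest again in that library, where Vwf alone stood at 29.8 CPM. The part of these marker levels in the results below was not tested. Epithelial markers were present: their sum over 12 genes was 75.7 to 90.5 CPM in the control libraries, 84.1 to 142 CPM with TGF-beta, 67.3 to 217 CPM in CM and 41.1 to 352 CPM in CM with neratinib. Tff1 was at 0 in 16 of the 17 libraries, and Sox9, which also marks cells other than epithelium, was at 29.2 CPM or more in each. In control, CM and CM with neratinib the library labelled PSC4 replicate 1 did not lie with the other PSC4 libraries on the third principal component. The scores of these 3 libraries, 1.76 to 37.0, overlapped those of PSC5, while the remaining PSC4 libraries scored between -56.8 and -19.7. They are called by their label throughout, and the counts of calls are given with and without them.

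The genes are on several chromosomes of the mouse build GRCm38. Snai1 lies at chr2:167538195-167542814 on the plus strand, Snai2 at chr16:14705852-14709385 on the plus strand, Twist1 at chr12:33957671-33959829 on the plus strand and Twist2 at chr1:91801461-91848028 on the plus strand. Zeb2 lies at chr2:44983632-45117395 on the minus strand, Prrx1 at chr1:163245119-163313710 on the minus strand and Prrx2 at chr2:30834972-30881251 on the plus strand. Antisense or intronic transcripts are annotated over Twist2, Zeb1, Zeb2 and Prrx1. Whether counting used strand is not given in the sources used here, so reads from such partners could not be told apart from those of these genes.

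RefSeq promoter entries (build GRCm38.p6) were matched for 6 of the 8: Snai1, Twist1, Twist2, Zeb2, Prrx1 and Prrx2. The 250 bases upstream of Snai1 and Twist1 are given, since these windows, free of annotated exons, hold a match to a motif searched for. Capitals mark CAGGTG (or its reverse complement CACCTG), the E-box bound by Snail and Zeb proteins, in Snai1, and the SMAD element CAGAC (or GTCTG), bound by the SMAD proteins that carry the TGF-beta signal, in Twist1. Both motifs were searched on both strands.
Snai1, chr2:167537945-167538194, plus strand: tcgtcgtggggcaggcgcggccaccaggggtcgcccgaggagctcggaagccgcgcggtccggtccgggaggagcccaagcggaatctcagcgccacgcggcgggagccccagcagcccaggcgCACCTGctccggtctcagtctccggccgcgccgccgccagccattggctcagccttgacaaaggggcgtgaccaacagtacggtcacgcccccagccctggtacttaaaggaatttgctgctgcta
Twist1, chr12:33957421-33957670, plus strand: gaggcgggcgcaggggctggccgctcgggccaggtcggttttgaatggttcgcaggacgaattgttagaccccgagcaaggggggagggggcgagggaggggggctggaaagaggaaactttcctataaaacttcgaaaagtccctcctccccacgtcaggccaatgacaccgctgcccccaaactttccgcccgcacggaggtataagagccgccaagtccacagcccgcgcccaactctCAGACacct
The E-box began 126 bases before the Snai1 start and the SMAD element 9 bases before the Twist1 start. Across 32851 mouse promoter windows of the same length, 17.2% held CAGGTG and 42.2% held CAGAC on either strand, so a match is a description of these letters. In the first listed windows of Twist2, Zeb2 and Prrx2 neither motif was found, and all 250 bases of the Prrx2 window lay in annotated exons. The Prrx1 window, not given because 60 of its bases lay in annotated exons, held a SMAD element 19 bases before the start.

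**Figure D1:**
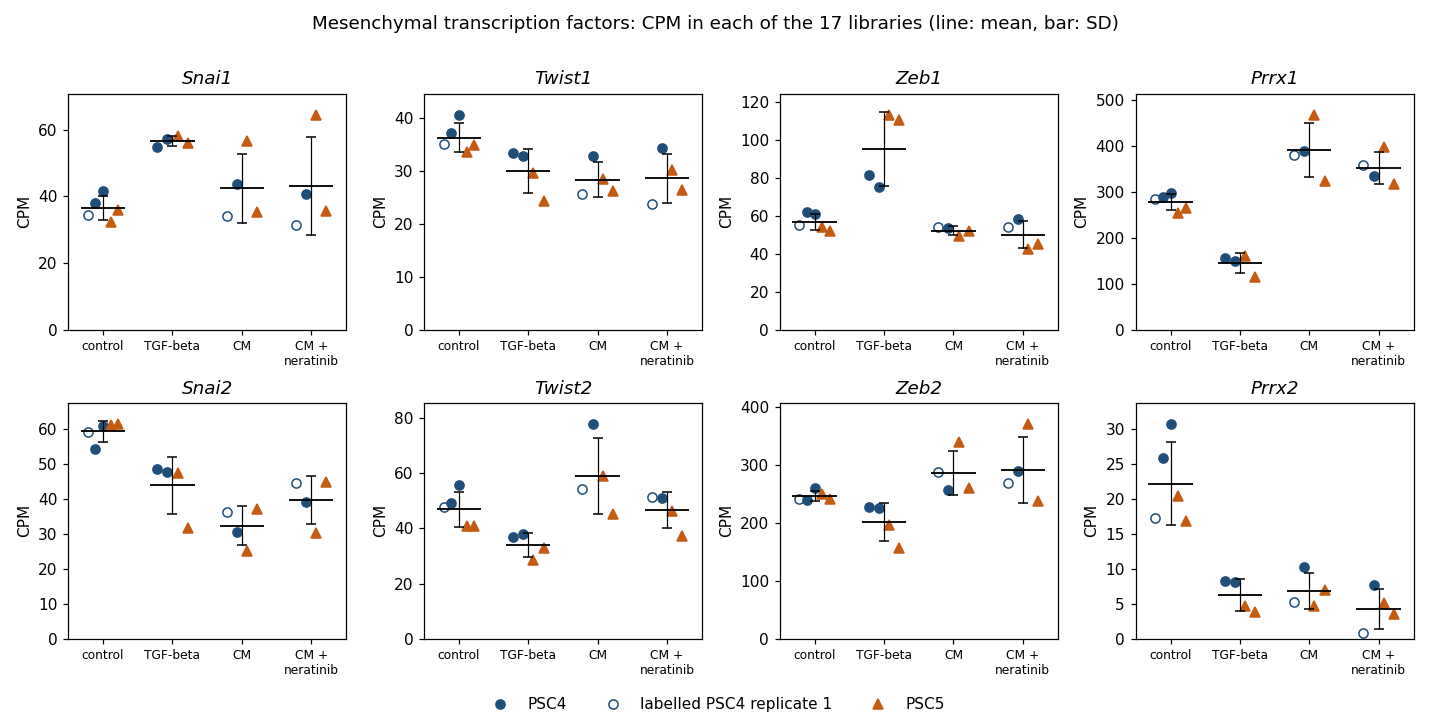
CPM (y axis, linear from 0) of the 8 genes in each of the 17 libraries, by medium (x axis). Circles are PSC4, open circles the libraries labelled PSC4 replicate 1, triangles PSC5, lines the group mean and bars the SD. Prrx2 is at 16.8 CPM or more in every control library and at 10.3 CPM or less in every other library.

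Prrx1 and Prrx2 moved together in TGF-beta and apart in conditioned medium. Prrx1, which in mouse is needed for limb and craniofacial mesenchyme, had the highest CPM of the 8 in control medium. Its level was 283.6, 289.6 and 298.3 CPM in the 3 control libraries of PSC4 and 254.1 and 264.2 CPM in those of PSC5. In TGF-beta it was 156.3 and 149.7 CPM in PSC4 and 161.3 and 114.2 CPM in PSC5. All 4 TGF-beta libraries were below all 5 control libraries. In bulk RNA of cultures, fewer cells of a kind and less RNA per cell cannot be told apart, here and below. On the log2 scale, used for all differences below, Prrx1 fell by 0.93 (SE 0.114, adjusted p = 1.9e-05). This and every adjusted p of a single gene comes from edgeR's quasi-likelihood test with Benjamini-Hochberg adjustment. In CM it was 381.0 and 390.3 CPM in PSC4 and 467.5 and 324.5 CPM in PSC5, above every control library, a rise of 0.50 (SE 0.112, adjusted p = 0.00976). With neratinib in the CM it was 358.0 and 335.6 CPM in PSC4 and 398.0 and 317.5 CPM in PSC5. That too was above every control library, a rise of 0.35 over control (SE 0.112, adjusted p = 0.0204). The latter call was lost without the PSC5 replicate 1 library of CM with neratinib (0.27, adjusted p = 0.0648), without the PSC5 replicate 1 control (0.32, adjusted p = 0.0524), and without the 3 libraries labelled PSC4 replicate 1 (0.36, adjusted p = 0.0549).

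Prrx2, the close relative of Prrx1, was lower in all 3 treated groups. Its control values were 17.2, 25.7 and 30.6 CPM in PSC4 and 20.4 and 16.8 CPM in PSC5. In TGF-beta they were 8.27 and 8.16 CPM in PSC4 and 4.69 and 3.82 CPM in PSC5 and fell by 1.82 (SE 0.427, adjusted p = 0.0034). In CM they were 5.30 and 10.3 CPM in PSC4 and 4.70 and 6.98 CPM in PSC5 and fell by 1.66 (SE 0.424, adjusted p = 0.019). Prrx2 in CM with neratinib was at 0.766 and 7.63 CPM in PSC4 and 5.10 and 3.57 CPM in PSC5 and fell by 2.30 (SE 0.442, adjusted p = 0.000944). No treated library overlapped the controls. The 0.766 CPM, from 18 counts, belongs to the library labelled PSC4 replicate 1, which also had the highest macrophage (13.5 CPM) and endothelial (32 CPM) marker sums. Most of each sum was 1 gene, Cd68 (12.3 CPM) and Vwf (29.8 CPM). In that library 4 of the 7 macrophage and 2 of the 6 endothelial markers were at 0. Without the 3 libraries of that label the differences were -1.95, -1.56 and -2.0 on the log2 scale, with adjusted p-values of 9.88e-07, 0.000213 and 9.07e-06. The CM call was lost without the CM library of PSC4 replicate 1 (-1.49, adjusted p = 0.0589) or of PSC5 replicate 1 (-1.57, adjusted p = 0.0711).

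Snai1, the founding vertebrate Snail gene and an early target of TGF-beta in many cells, rose with TGF-beta. Control libraries held 34.5, 38.0 and 41.5 CPM in PSC4 and 32.2 and 36.0 CPM in PSC5. TGF-beta libraries held 54.8 and 57.3 CPM in PSC4 and 58.1 and 55.9 CPM in PSC5, all above control. The rise was 0.62 (SE 0.179, adjusted p = 0.0125), and the SD over the 4 TGF-beta libraries was 1.48 CPM. In CM the libraries were spread: 34.2 and 43.6 CPM in PSC4 and 56.7 and 35.3 CPM in PSC5. With neratinib added they were 31.3 and 40.8 CPM in PSC4 and 64.4 and 35.6 CPM in PSC5. Both groups overlapped the controls, and neither difference passed the test (0.20, SE 0.180, adjusted p = 0.503 for CM, and 0.21, SE 0.181, adjusted p = 0.358 with neratinib). The highest value in both came from PSC5 replicate 1 and the lowest from the library labelled PSC4 replicate 1, and all 4 of those libraries carry the medium code T8.

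Snai2, the second Snail gene, which encodes Slug, went the other way. It stood at 59.2, 54.2 and 61.0 CPM in the PSC4 controls and 61.2 and 61.4 CPM in the PSC5 controls. In CM it was 36.3 and 30.7 CPM in PSC4 and 25.2 and 37.2 CPM in PSC5, below every control and fell by 0.87 (SE 0.145, adjusted p = 0.0017). With neratinib it was 44.6 and 39.1 CPM in PSC4 and 30.2 and 44.9 CPM in PSC5, again below every control, and Snai2 fell by 0.58 (SE 0.144, adjusted p = 0.0053). These falls in CM, with and without neratinib, stayed past the threshold in all 19 settings tried for each. In TGF-beta it was 48.7 and 47.9 CPM in PSC4 and 47.6 and 31.7 CPM in PSC5, all below control and fell by 0.43 (SE 0.143, adjusted p = 0.0256). That call was lost without the control library of PSC5 replicate 1 (-0.40, adjusted p = 0.0592), the control library of PSC5 replicate 2 (-0.40, adjusted p = 0.0575) or the TGF-beta library of PSC5 replicate 2 (-0.31, adjusted p = 0.089).

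Zeb1, a zinc finger homeobox repressor of E-cadherin, rose in TGF-beta and in no other medium passed the test. Control libraries held 54.9, 61.8 and 60.6 CPM in PSC4 and 54.0 and 51.9 CPM in PSC5. In TGF-beta it was 81.5 and 74.9 CPM in PSC4 and 113.0 and 110.5 CPM in PSC5, all above control, a rise of 0.75 (SE 0.124, adjusted p = 0.00024). Fitted within each line, the rise was 0.40 in PSC4 (SE 0.0748, adjusted p = 0.00249) and 1.08 in PSC5 (SE 0.0834, adjusted p = 1.59e-05). The test of the difference between lines gave 0.67 (SE 0.112) with an unadjusted p of 6.59e-05 and an adjusted p of 0.229, so the lines were not shown to differ. By edgeR, no gene of the 13923 passed that test, nor the 2 like it for CM against control and for neratinib (0% called in each), and 601, 43 and 237 genes had an unadjusted p under 0.05. In CM Zeb1 ranged from 49.0 to 53.9 CPM (-0.12, SE 0.124, adjusted p = 0.573), and in CM with neratinib from 42.7 to 58.1 CPM (-0.18, SE 0.124, adjusted p = 0.265).

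Zeb2, its paralog, was more abundant than Zeb1 in every library. It lay between 240.0 and 259.7 CPM in control medium. In TGF-beta it was 227.3 and 225.1 CPM in PSC4 and 195.9 and 157.1 CPM in PSC5, all below control, with a difference of -0.29 (SE 0.13) that missed the threshold (adjusted p = 0.0894). With the replicate block, a fit that compares libraries of the same line and passage, Zeb2 fell by 0.32 (adjusted p = 0.019). In CM it ranged from 257.2 to 339.4 CPM (0.22, SE 0.13, adjusted p = 0.29). With neratinib it ranged from 237.5 to 370.6 CPM (0.25, SE 0.13, adjusted p = 0.139). With the block the latter difference was 0.26 (adjusted p = 0.0474).

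Twist1 was a little lower in every treated group. It ranged from 33.5 to 40.5 CPM in control medium, from 24.2 to 33.2 CPM in TGF-beta, from 25.5 to 32.8 CPM in CM and from 23.6 to 34.2 CPM in CM with neratinib. The TGF-beta libraries lay just below the controls, but the difference of -0.26 (SE 0.108) missed the threshold (adjusted p = 0.0643). It was called with the replicate block (-0.33, adjusted p = 0.00204) and without the 3 libraries labelled PSC4 replicate 1 (-0.29, adjusted p = 0.0041). In CM Twist1 fell by 0.34 (SE 0.109, adjusted p = 0.0468). Leaving out any 1 of the 9 libraries of that comparison ended the call, with adjusted p-values from 0.05 to 0.156, and with the block it was kept (-0.32, adjusted p = 0.00718). With neratinib it fell by 0.33 (SE 0.109, adjusted p = 0.0256), with groups that overlapped. That call was lost without the CM with neratinib libraries of PSC4 replicate 1 (-0.21, adjusted p = 0.095) or PSC5 replicate 2 (-0.31, adjusted p = 0.0622), and without the controls PSC4 replicate 3 (-0.30, adjusted p = 0.0563) or PSC5 replicate 2 (-0.32, adjusted p = 0.0523).

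Twist2, known as Dermo1 from its expression in dermis, fell with TGF-beta. Its control values were 47.8, 49.2 and 55.8 CPM in PSC4 and 40.7 and 41.0 CPM in PSC5. In TGF-beta they were 37.0 and 37.8 CPM in PSC4 and 28.4 and 32.7 CPM in PSC5, all below control and fell by 0.43 (SE 0.104, adjusted p = 0.00405). In CM they were 54.4 and 77.7 CPM in PSC4 and 59.1 and 45.0 CPM in PSC5, overlapping the controls. The rise in CM was 0.36 (SE 0.103, adjusted p = 0.0306). It was called in 3 of the 9 fits that leave out a library, and lost without the CM libraries of PSC4 replicate 2 (0.26, adjusted p = 0.123) or PSC5 replicate 1 (0.30, adjusted p = 0.118). It was also lost without the control PSC4 replicate 1, PSC4 replicate 2, PSC5 replicate 1 or PSC5 replicate 2 (adjusted p = 0.0583, 0.0641, 0.0662 and 0.0629). With neratinib in the CM the values were 51.5 and 51.1 CPM in PSC4 and 46.2 and 37.3 CPM in PSC5, and the difference from control was 0.02 (SE 0.103, adjusted p = 0.89).

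**Figure D2:**
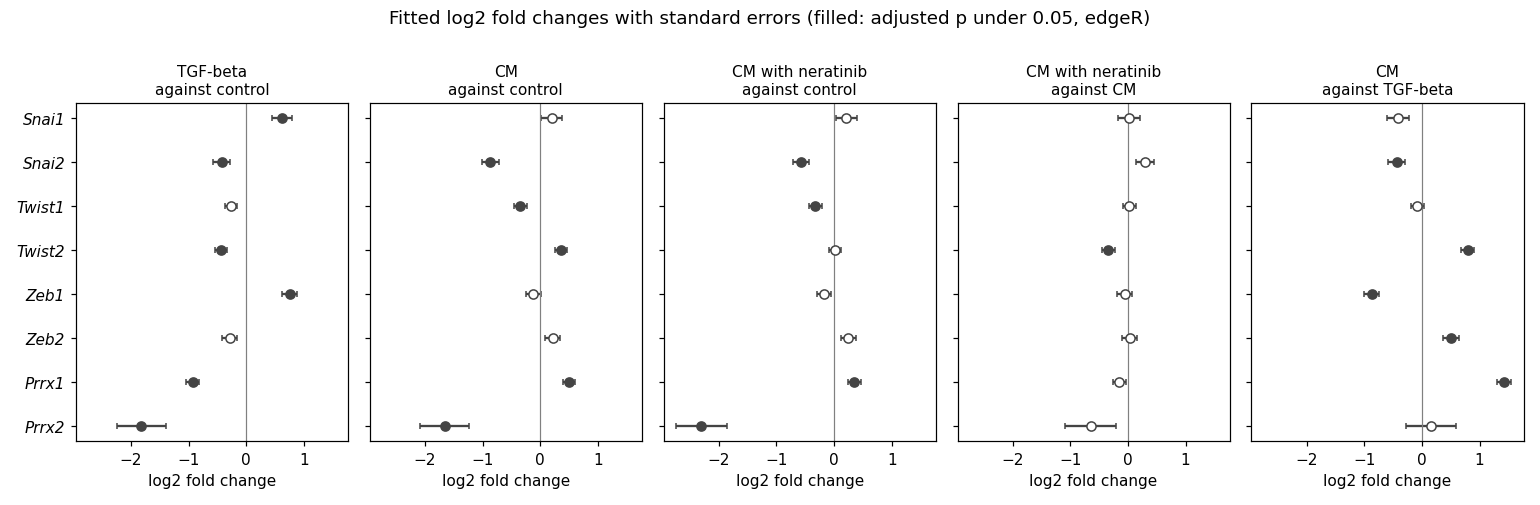
Fitted log2 fold changes (x axis) of the 8 genes (y axis) in 5 comparisons, with standard errors as bars. Filled points have an adjusted p under 0.05: 6 in TGF-beta against control, 5 in CM against control, 4 in CM with neratinib against control, 1 in CM with neratinib against CM and 5 in CM against TGF-beta.

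Counted together, 6 of the 8 genes changed with TGF-beta against control, 2 higher (Snai1, Zeb1) and 4 lower (Snai2, Twist2, Prrx1, Prrx2), where 40.2% of all tested genes were called (19.7% higher, 20.5% lower). None of the 8 had groups that overlapped in that comparison, where the groups did not overlap for 32.7% of all tested genes. The median of their log2 fold changes was -0.36 against -0.02 over all genes. The count was 8 with the replicate block (2 higher, 6 lower) and 7 without the 3 libraries labelled PSC4 replicate 1. The shares of all genes, here and below, belong to the fit with group and line terms over all 17 libraries. Those of the other fits are not given, so their counts have no such share beside them. In CM against control 5 of the 8 were called, 2 higher (Twist2, Prrx1) and 3 lower (Snai2, Twist1, Prrx2), against 14.2% of all genes (7.05% higher, 7.14% lower). Their median was 0.04, against -0.000368 over all genes, and the count was again 5 with the block and 5 without the 3 libraries, but 2 to 4 when any single library was left out. In CM with neratinib against control 4 of the 8 were called, 1 higher (Prrx1) and 3 lower (Snai2, Twist1, Prrx2). That share is near the 43.1% of all genes called there (22.2% higher, 20.9% lower). Their median was -0.08, against 0.00459 over all genes. The count was 5 with the block and 3 without the 3 libraries. These 3 comparisons share the 5 control libraries.

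CM with neratinib was also compared directly with CM alone. No library had neratinib in control medium. A changed response to the conditioned medium therefore cannot be told apart from an effect of the drug in any medium. Of the 8 genes, 1 was called (0 higher, 1 lower), against 20.5% of all tested genes (10.8% higher, 9.63% lower). Twist2 was lower with neratinib (log2 difference -0.34, SE 0.109, adjusted p = 0.0385), with groups that overlapped: 37.3 to 51.5 CPM with neratinib and 45.0 to 77.7 CPM in CM alone. This was lost in 5 of the 8 fits that leave out a library. Those were the fits without the CM libraries of PSC4 replicate 2 (adjusted p = 0.131) or PSC5 replicate 1 (0.116), and without the neratinib libraries of PSC4 replicate 1 (0.076), PSC4 replicate 2 (0.0709) or PSC5 replicate 2 (0.119). Snai2 was 0.29 higher (SE 0.151, adjusted p = 0.183), Prrx1 0.15 lower (-0.15, SE 0.117, adjusted p = 0.396) and Prrx2 -0.65 on the log2 scale (SE 0.444, adjusted p = 0.328). For Snai1, Twist1, Zeb1 and Zeb2 the estimates lay between -0.06 and 0.03, with standard errors of 0.114 to 0.189. A difference of the size of these standard errors was not detectable with 4 libraries a group. The median of the absolute log2 fold changes was 0.105 over the 8 genes and 0.21 over all genes.

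Conditioned medium and TGF-beta gave different profiles of these factors. In CM against TGF-beta 5 of the 8 were called, 3 higher and 2 lower, against 35.3% of all genes (17.8% higher, 17.5% lower). Prrx1 was 1.43 higher in CM (SE 0.12, adjusted p = 6.3e-07), at 391 ± 58.8 CPM (SD, n = 4) against 145 ± 21.4 CPM (SD, n = 4). Twist2 was 0.79 higher (SE 0.109, adjusted p = 5.88e-05) and Zeb2 0.51 higher (SE 0.137, adjusted p = 0.00931). Zeb1 was lower by 0.87 (-0.87, SE 0.131, adjusted p = 0.000132). These 4 had groups that did not overlap, as had 31.5% of all tested genes, and they kept their calls in every setting tried. Snai2 was lower in CM (-0.44, SE 0.15, adjusted p = 0.0344) with overlapping groups. That call was lost without the CM libraries of PSC4 replicate 2 (adjusted p = 0.0882) or PSC5 replicate 1 (0.103), and without the TGF-beta libraries of PSC4 replicate 2 (0.0862), PSC4 replicate 3 (0.081) or PSC5 replicate 1 (0.101). Snai1 was at -0.42 (SE 0.189, adjusted p = 0.099), and was called without the CM library of PSC5 replicate 1 (-0.57, adjusted p = 0.0362). Prrx2, low in both media, differed by 0.16 (SE 0.437, adjusted p = 0.806).

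Between the lines 1 of the 8 differed, against 6.97% of all genes (2.18% higher and 4.78% lower in PSC5): Twist2 was lower in PSC5 (-0.31, SE 0.0753, adjusted p = 0.0336). That call was lost in 12 of the 17 fits that leave out a library. Without the 3 libraries labelled PSC4 replicate 1 there were 3 calls, all lower in PSC5: Twist1 (-0.25, adjusted p = 0.00273), Twist2 (-0.37, adjusted p = 0.0018) and Prrx2 (-0.78, adjusted p = 0.000209).

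Ratios of paralogs within a library do not depend on how libraries are scaled, and they show how the balance within each family changed. The log2 ratio of Snai1 to Snai2 counts ran from -0.93 to -0.51 in the control libraries. It ran from 0.17 to 0.82 in TGF-beta, from -0.08 to 1.16 in CM and from -0.51 to 1.09 in CM with neratinib. Snai2 thus led Snai1 in counts in every control library, and Snai1 led Snai2 in every TGF-beta library. The mean ratio rose by 1.09 in TGF-beta, by 1.09 in CM and by 0.79 in CM with neratinib. Each had an adjusted p of 0.0144 in an exact two-sided permutation test over libraries, adjusted over the 20 ratios compared (4 libraries against 5, smallest unadjusted p 0.00794). Without the PSC5 replicate 1 library of CM with neratinib, the rise in that medium was 0.45 and was not called (adjusted p = 0.051, exact permutation).

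**Figure D3:**
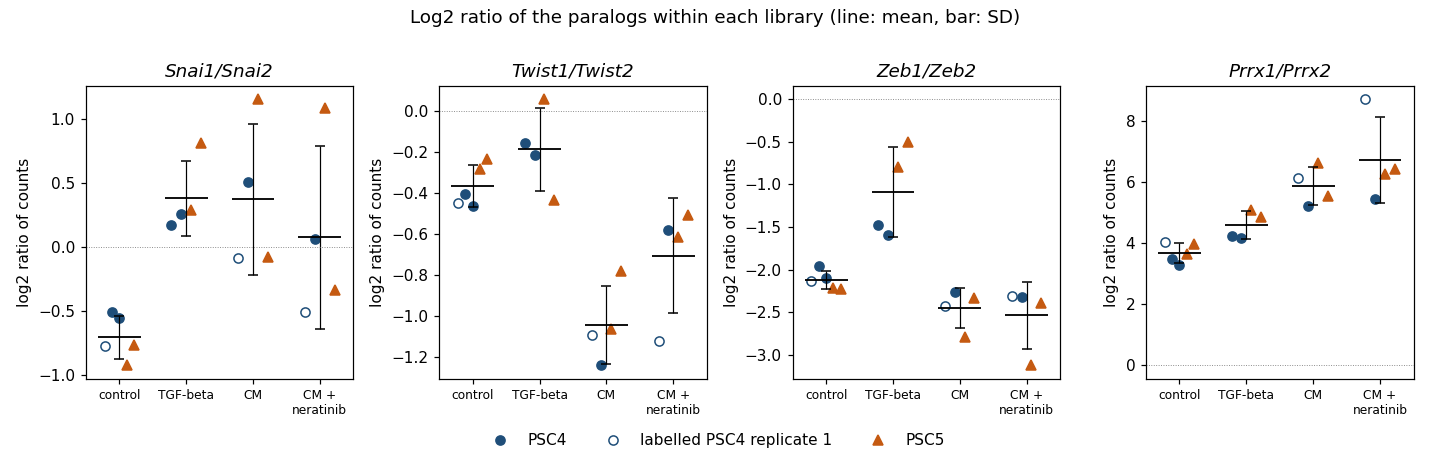
Log2 ratio of the counts of each pair of paralogs (y axis) in the 17 libraries, by medium (x axis). Symbols are circles for PSC4 (open for replicate 1) and triangles for PSC5, with the mean as a line and the SD as a bar. The Prrx1 to Prrx2 ratio is between 3.28 and 4.04 in the control libraries and above that range in every other library.

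The ratio of Zeb1 to Zeb2 rose by 1.03 in TGF-beta and fell by 0.33 in CM and by 0.41 in CM with neratinib (adjusted p = 0.0144 for each, exact permutation). It was -2.22 to -1.96 in the controls, -1.59 and -1.48 in the PSC4 libraries with TGF-beta and -0.79 and -0.51 in the PSC5 libraries with TGF-beta. Without the PSC5 replicate 1 library of the medium concerned, the change in CM (-0.21, adjusted p = 0.0549, exact permutation) and that in CM with neratinib (-0.22, adjusted p = 0.051) were lost. Zeb2 counts exceeded those of Zeb1 in every library. The ratio of Prrx1 to Prrx2 rose in all 3 media against control, by 0.91 in TGF-beta, 2.20 in CM and 3.04 in CM with neratinib (adjusted p = 0.0144 for each, exact permutation). The TGF-beta rise was not called without the TGF-beta library of PSC5 replicate 1 (0.74, adjusted p = 0.0549, exact permutation) or PSC5 replicate 2 (0.81, adjusted p = 0.051). The library with 18 counts of Prrx2 had the highest ratio, 8.72, and without the 3 libraries of its label the rise with neratinib was 2.46 (adjusted p = 0.044). The ratio of Twist1 to Twist2 fell by 0.68 in CM and by 0.34 in CM with neratinib (adjusted p = 0.0144 for each, exact permutation). The second of these was lost without the 3 libraries labelled PSC4 replicate 1 (-0.22, adjusted p = 0.0816), and without the neratinib library of that label alone (-0.20, adjusted p = 0.051, exact permutation). In TGF-beta the Twist1 to Twist2 ratio differed by 0.18 (adjusted p = 0.149, exact permutation).

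Of the 20 ratio comparisons 14 were called. All 14 had the smallest p their test can give, which only groups that do not overlap reach, so that separation restates the call. The share of other gene pairs that would be called was not computed. None of the 4 between CM with neratinib and CM was called. Between CM and TGF-beta the Snai1 to Snai2 ratios did not separate (-0.00652, adjusted p = 0.971, exact permutation), while the Twist (-0.86), Zeb (-1.36) and Prrx (1.29) ratios did (adjusted p = 0.0408 for each, exact permutation). The Prrx call was lost without the CM library of PSC5 replicate 1 (1.04) or any 1 of the 4 TGF-beta libraries (1.15 to 1.45), with adjusted p-values of 0.0762 to 0.0816 by exact permutation. With the replicate block none was called, because 3 or 4 pairs cannot give a p below 0.25 or 0.125.

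**Figure D4:**
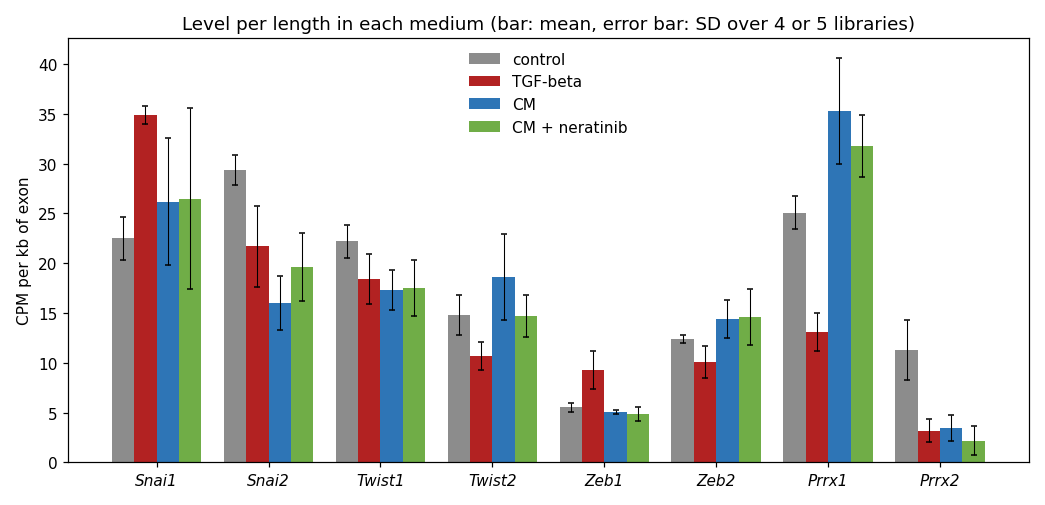
Level per length (CPM per kb of annotated exon, y axis from 0) of the 8 genes (x axis) in the 4 media, as mean bars with the SD over 4 or 5 libraries. Snai2 leads in control medium at 29.4, Snai1 in TGF-beta at 34.9 and Prrx1 in CM at 35.3 CPM per kb.

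To compare genes with each other, CPM was divided by the length of all annotated exons of a gene, from 1.62 kb for Snai1 to 19.9 kb for Zeb2. This understates genes whose exon set is mostly absent from the transcript in use. In control medium the order on this scale was Snai2 (29.4 ± 1.51 CPM per kb, SD, n = 5), Prrx1 (25.1), Snai1 (22.5), Twist1 (22.2), Twist2 (14.8), Zeb2 (12.4), Prrx2 (11.3) and Zeb1 (5.52). The ranges of neighbours overlapped, except that Twist2 was below Twist1 and Zeb1 below Prrx2 in every library. In TGF-beta Snai1 came first, at 34.9 ± 0.915 CPM per kb (SD, n = 4), above the range of Snai2 in second place (15.7 to 24.1 CPM per kb). Prrx1 stood there at 13.1 and Prrx2 last at 3.18 CPM per kb. In CM the first place went to Prrx1, at 35.3 ± 5.31 CPM per kb (SD, n = 4), and Snai2 ranged from 12.5 to 18.4 CPM per kb. With neratinib Prrx1 was again first at 31.8 and Prrx2 last at 2.18 CPM per kb. The ranges of Prrx1 and Snai1, in second place, overlapped in both CM groups.

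Twist proteins work as dimers, so their partners and inhibitors were read next. All 3 E proteins (Tcf3, Tcf4, Tcf12) and all 4 ID proteins (Id1 to Id4) were measured. With TGF-beta the 4 Id genes fell and no E protein gene passed the test, where 19.7% of all genes were higher and 20.5% lower. With the replicate block, and without the 3 libraries labelled PSC4 replicate 1, 1 of the 7 was higher and 4 were lower. Id3 stood at 133 ± 16.9 CPM (SD, n = 5) in control and at 30.7 ± 14.1 CPM (SD, n = 4) in TGF-beta. It fell by 2.11 (SE 0.282, adjusted p = 3.8e-05). Id4 fell by 2.74 (SE 0.467, adjusted p = 0.000307), Id1 by 1.77 (SE 0.232, adjusted p = 3.25e-05) and Id2 by 0.84 (SE 0.206, adjusted p = 0.00458). In CM all 7 genes were called lower, against 7.14% of all genes. Id4 fell by 1.73 (SE 0.446, adjusted p = 0.0196) and Id3 by 1.06 (SE 0.271, adjusted p = 0.0186), while the 3 E protein genes fell by 0.26 to 0.28 with adjusted p-values of 0.0159 to 0.0453. The count was 6 with the replicate block and 7 without the 3 libraries labelled PSC4 replicate 1. In CM with neratinib 3 of the 7 were lower than in control, against 20.9% of all genes: Tcf4 by 0.54 (SE 0.0869, adjusted p = 0.00027), Id2 by 0.79 (SE 0.207, adjusted p = 0.00717) and Id4 by 1.87 (SE 0.456, adjusted p = 0.00455). Id1 was at -0.25 and Id3 at -0.58 there, with adjusted p-values of 0.375 and 0.0954. By edgeR none of the 7 was called between CM with neratinib and CM, where 10.8% of all genes were higher and 9.63% lower. Of the 7, 2 had an unadjusted p under 0.05, and the block gave 1 higher and 1 lower. Between CM and TGF-beta 2 were higher in CM (Id1 by 0.85, adjusted p = 0.0116, and Id3 by 1.05, adjusted p = 0.00997) and 1 lower (Tcf3, -0.38, adjusted p = 0.00355), against 17.8% and 17.5% of all genes.

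**Figure D5:**
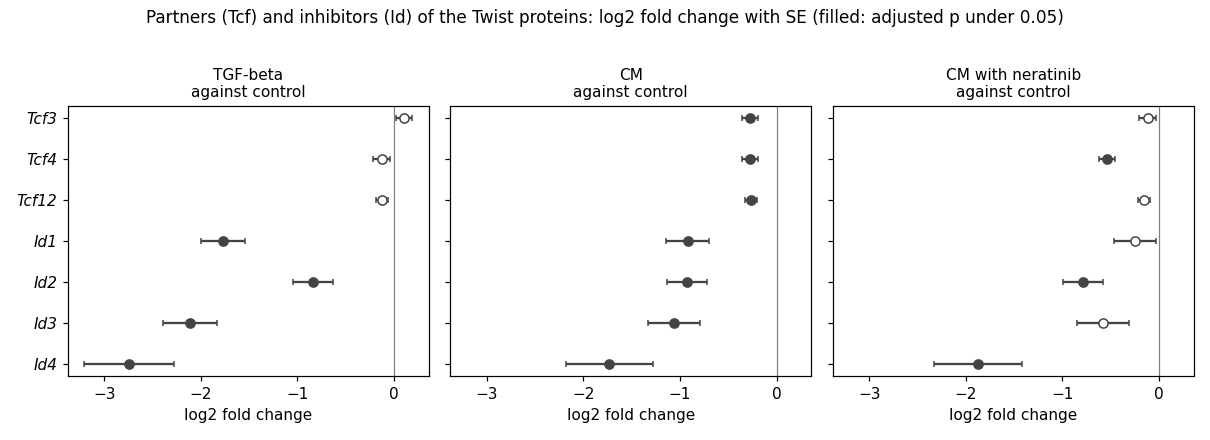
Log2 fold change (x axis) with SE of the 3 E protein genes and 4 Id genes (y axis) against control in TGF-beta, CM and CM with neratinib. Filled points have an adjusted p under 0.05. The Id genes lie left of 0 in all 3 panels, from -2.74 for Id4 in TGF-beta to -0.25 for Id1 in CM with neratinib.

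Snail and Zeb proteins repress through recruited enzymes, scaffolds and adaptors, of which 13 genes were listed and tested. With TGF-beta 6 of the 13 were higher and none lower, against 19.7% and 20.5% of all genes. Kdm1a, the histone demethylase LSD1 that binds the SNAG domain of Snail proteins, went from 82.5 to 131 CPM (0.66, SE 0.0631, adjusted p = 1.83e-06). Rcor1, its partner CoREST, rose by 0.43 (SE 0.0788, adjusted p = 0.000553). With the replicate block 9 were higher and 1 lower, and without the 3 libraries labelled PSC4 replicate 1 it was 8 and 1. In CM against control edgeR called 0 of the 13, with 0 at an unadjusted p under 0.05, and 1 higher and 2 lower with the block. Over all genes those shares were 7.05% higher and 7.14% lower. Against TGF-beta, CM had 0 higher and 7 lower (17.8% and 17.5% of all genes), with Kdm1a at -0.60 (adjusted p = 9.04e-06) and Hdac2, a histone deacetylase, at -0.42 (adjusted p = 0.00208). With neratinib against control 4 were higher and 1 lower, against 22.2% and 20.9% of all genes. Ctbp2, a C-terminal binding protein, rose by 0.33 (SE 0.0774, adjusted p = 0.00383) and Limd1, a LIM protein of the Ajuba family, by 0.29 (SE 0.0566, adjusted p = 0.00105), and Ajuba itself was lower (-0.35, SE 0.132, adjusted p = 0.0412). Neratinib against CM gave 3 higher (Limd1 0.27, Wtip 0.18, Ctbp1 0.18, adjusted p = 0.00602, 0.0332 and 0.0382) and 1 lower (Hdac1, -0.17, adjusted p = 0.0464), against 10.8% and 9.63% of all genes. The counts became 1 and 0 without the 3 libraries labelled PSC4 replicate 1.

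Snail and Twist proteins are short-lived, and 11 genes linked to their turnover, mostly kinases and parts of ubiquitin ligases, were tested. With TGF-beta 4 were higher and 1 lower, against 19.7% and 20.5% of all genes. Gsk3b, the kinase that marks Snail for degradation, rose by 0.41 (SE 0.0794, adjusted p = 0.000783), Fbxo11, an F-box protein, by 0.22 (SE 0.0636, adjusted p = 0.0112), and Lats2, a Hippo pathway kinase, fell by 0.54 (SE 0.0537, adjusted p = 3.03e-06). In CM 1 of the 11 was called (7.05% of all genes were higher), Fbxl5, another F-box protein, which rose by 0.49 (SE 0.0899, adjusted p = 0.00312). In CM with neratinib 7 were higher and 1 lower than in control, against 22.2% and 20.9% of all genes. Fbxl5 rose by 0.67 (SE 0.0898, adjusted p = 7.1e-05), Pard3, a polarity scaffold, by 0.59 (SE 0.0955, adjusted p = 0.000283), and Btrc, the F-box protein beta-TrCP that reads the Gsk3b mark, fell by 0.44 (SE 0.0916, adjusted p = 0.00171). Against CM alone 5 were higher and none lower with neratinib (10.8% and 9.63% of all genes), or 3 and 0 without the 3 libraries labelled PSC4 replicate 1. The 5 included Pard3 (0.43, adjusted p = 0.00871) and Gsk3b (0.36, SE 0.0841, adjusted p = 0.00925). In CM against TGF-beta 2 were higher, Fbxl5 (0.65, adjusted p = 0.000106) and Lats2 (0.65, adjusted p = 8.53e-07), and 4 lower, with Gsk3b at -0.45 (adjusted p = 0.000712) and Fbxo11 at -0.37 (adjusted p = 0.000554), against 17.8% and 17.5% of all genes. These are transcript levels and say nothing of protein stability.

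Among 20 mesenchymal genes linked to these factors, 11 were higher and 2 lower with TGF-beta, with a median log2 fold change of 1.04 against -0.02 over all genes, of which 19.7% were higher and 20.5% lower. Tnc, the matrix protein tenascin C, rose by 1.76 (SE 0.264, adjusted p = 0.000104) and Itga5, the fibronectin receptor subunit, by 1.59 (SE 0.135, adjusted p = 5.67e-07). Pdgfra fell by 1.48 (SE 0.437, adjusted p = 0.0138) and S100a4 by 1.12 (SE 0.268, adjusted p = 0.00393). In CM 3 were higher and 2 lower, against 7.05% and 7.14% of all genes, with 3 and 4 by the block and 3 and 5 without the 3 libraries labelled PSC4 replicate 1. The lower were Vim, the intermediate filament vimentin (-0.67, SE 0.14, adjusted p = 0.00702), and S100a4 (-1.19, adjusted p = 0.0102). Tnc rose by 1.07 (adjusted p = 0.0148) and Mmp2, a matrix metalloproteinase, by 0.92 (SE 0.216, adjusted p = 0.0129). In CM with neratinib 1 was higher and 7 were lower, against 22.2% and 20.9% of all genes, the latter including Postn, the matrix protein periostin (-2.60, SE 0.912, adjusted p = 0.0323), and Fap, fibroblast activation protein (-1.70, SE 0.413, adjusted p = 0.00438). Neratinib against CM gave 1 higher (Vim, 0.56, adjusted p = 0.0159) and 2 lower (Fn1, -0.57, adjusted p = 0.0366, and Fap, -1.43, adjusted p = 0.0281), against 10.8% and 9.63% of all genes. The block gave 1 and 8 there, and without the 3 libraries labelled PSC4 replicate 1 it was 1 and 0. In CM against TGF-beta 1 was higher, Pdgfra (1.51, adjusted p = 0.0172), and 9 lower, with Postn at -3.29 (adjusted p = 0.0132) and Cdh11 at -1.87 (adjusted p = 9.14e-05), against 17.8% and 17.5% of all genes.

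The epithelial genes that Snail and Zeb proteins are known to repress were mostly called in CM and seldom in TGF-beta. Of 20 listed, 19 were tested. With TGF-beta 1 rose, Dsp, the desmosome protein desmoplakin (5.95 against 0.155 CPM, adjusted p = 0.0032), and 1 fell, Cldn1, claudin 1 (0.598 against 7.19 CPM, adjusted p = 1.48e-05), and the block gave 4 higher and 2 lower (19.7% and 20.5% of all genes were higher and lower in the fit without it). In CM 11 were higher and 1 lower than in control, against 7.05% and 7.14% of all genes. In CM with neratinib 13 were higher and 2 lower, against 22.2% and 20.9%. In CM against TGF-beta directly 10 were higher and 1 lower (17.8% and 17.5% of all genes), and 16 and 1 without the 3 libraries labelled PSC4 replicate 1. Cldn4, another claudin, was at 0.00709 CPM in control and 7.08 CPM in CM (adjusted p = 0.00773). Ocln, occludin, was listed at 0 in the controls and at 0.681 CPM in CM (adjusted p = 0.0441). Cldn1 was again lower in CM (1.35 CPM, adjusted p = 0.0015). With neratinib Cldn4 was at 9.83 CPM (adjusted p = 0.00159 against control), Ocln at 1.09 CPM (adjusted p = 0.00981) and Cldn1 at 0.898 CPM (adjusted p = 8.33e-05). Cdh3, P-cadherin, was at 0.872 CPM with neratinib, lower than the 7.66 CPM of control (adjusted p = 7.96e-05) and the 3.47 CPM of CM (adjusted p = 0.00552). Cdh3 was the 1 gene of the list called between CM with neratinib and CM, where 10.8% of all genes were higher and 9.63% lower. It was also lower in CM than in TGF-beta (10.6 CPM, adjusted p = 0.00473), while Cldn3 (1.08 against 0.0102 CPM, adjusted p = 0.0113) and Mal2 (1.19 CPM, listed at 0 in TGF-beta, adjusted p = 0.00962) were higher. The summed epithelial markers, which share Cdh1, Epcam, Cldn4 and Cldn7 with this list, differed by medium code. In control they summed to 75.7 to 90.5 CPM. In CM they were at 217 and 199 CPM in the T6 libraries but at 67.3 and 78.8 CPM in the T8 libraries. With neratinib they were 181 and 352 CPM in T6 and 41.1 and 90.7 CPM in T8. Sox9 alone made up 29.2 CPM or more of each sum. Of the 12 markers, 6 to 7 were above the floor in each control library and 11 in each T6 library. In the T8 libraries it was 7 (PSC4) and 11 (PSC5) in CM, and 5 (PSC4) and 11 (PSC5) with neratinib. Whether epithelial RNA in the conditioned medium had a part in these counts was not tested. Whether such RNA had a part in the levels of the 8 genes was not tested either. Snai2, Twist1, Prrx1 and Prrx2 lay outside the control range in both T6 and both T8 libraries of CM, while Snai1, Twist2, Zeb1 and Zeb2 overlapped it. The share of all tested genes without overlap between CM and control was not computed.

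Of 10 epithelial factors known to oppose these genes, 6 passed the filter. By edgeR none was called in TGF-beta or CM against control, where 40.2% and 14.2% of all genes were called. An unadjusted p under 0.05 was found for 1 and 3 of them, and the block gave 0 and 3. Without the 3 libraries labelled PSC4 replicate 1, 7 were tested. Of these, 0 were called in TGF-beta, 3 were higher in CM and 4 were higher in CM with neratinib, each against control. In CM with neratinib Elf3 (0.751 against 0.0642 CPM, adjusted p = 0.0154) and Ehf (1.28 CPM, listed at 0 in control, adjusted p = 0.0176), both ETS factors of epithelia, were higher, as were 22.2% of all genes. Klf5 was lower with neratinib than in CM alone, 17.8 against 30.3 CPM (-0.77, SE 0.183, adjusted p = 0.00967), as were 9.63% of all genes. In CM against TGF-beta Klf5 (30.3 against 20.5 CPM, adjusted p = 0.025) and Ehf (0.915 CPM, listed at 0 in TGF-beta, adjusted p = 0.0375) were higher, as were 17.8% of all genes. The host genes of the miR-200 and miR-205 loci, whose microRNAs target Zeb1 and Zeb2, were listed as well, and 0 of 6 symbols matched an identifier in the tables.

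Another 41 transcription factors of fibroblasts were listed for comparison, of which 37 were tested. With TGF-beta 12 were higher and 6 lower, against 19.7% and 20.5% of all genes. The block gave 13 and 11, and without the 3 libraries labelled PSC4 replicate 1 it was 13 and 10. Scx, the tendon factor scleraxis, rose by 3.00 (SE 0.266, adjusted p = 8.77e-07), Gli1 by 3.29 (SE 0.449, adjusted p = 4.62e-05), while Osr2 fell by 4.09 (SE 0.84, adjusted p = 0.00133) and Nr2f1 fell by 1.21 (SE 0.192, adjusted p = 0.000175). In CM none was higher and 5 were lower, against 7.05% and 7.14% of all genes, including Osr1 (-0.77, SE 0.222, adjusted p = 0.0321) and Scx (-1.02, adjusted p = 0.0262), and with the block 3 were higher and 9 lower. With neratinib in the CM 1 was higher, Tead4 (0.59, SE 0.213, adjusted p = 0.0367), and 13 were lower, against 22.2% and 20.9% of all genes, or 5 and 19 with the block. Osr2 fell by 4.12 (SE 0.837, adjusted p = 0.00141) and Ebf2 fell by 2.14 (SE 0.651, adjusted p = 0.0159). Nr2f2, also called COUP-TFII, was lower with neratinib than in CM alone (-0.63, SE 0.146, adjusted p = 0.00831), as was Meox1 (-1.26, adjusted p = 0.047). These 2 were the only calls there (10.8% of all genes were higher and 9.63% lower), and the block gave 1 higher and 8 lower. In CM against TGF-beta 5 were higher, with Osr2 at 2.37 (adjusted p = 0.0372) and Nr2f1 at 1.17 (adjusted p = 0.000354), and 13 lower, with Scx at -4.01 (adjusted p = 2.46e-07) and Gli1 at -3.29 (adjusted p = 0.000115), against 17.8% and 17.5% of all genes.

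The genes whose levels followed each factor most closely were found by the root mean square difference of log2 CPM, centred on each gene's mean, over the 17 libraries. This likeness is a description and most of it is between the 4 media. For Prrx1 the nearest were Pnrc1 (0.129) and Nfkbia (0.134), where Prrx1 itself had a root mean square deviation of 0.56. Nfkbia, an inhibitor of NF-kappaB induced by it, was at 66.1 CPM in control, 30.5 in TGF-beta, 92.5 in CM and 86.8 CPM in CM with neratinib. Twist1 was nearest to Kank2 (0.0833) and Snx29 (0.0867), and Zeb2 to Man2b1 (0.0864) and Slf2 (0.108). Snai1 was nearest to Galnt10 (0.172) and Ckap4 (0.173), Snai2 to Ptpdc1 (0.14) and Akap12 (0.173), Twist2 to Pnp (0.151) and Ets2 (0.167), and Zeb1 to Polb (0.154) and Ivns1abp (0.165). Prrx2 had the largest differences from its nearest genes, Adrb1 (0.366) and Abat (0.434), both also highest in control medium, at 2.77 and 8.47 CPM. Its own root mean square deviation was also the largest, 1.23, against 0.22 (Twist1) to 0.56 (Prrx1) for the others, so these differences do not rank closeness between genes.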

How the data were processed

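RNA was sequenced from 17 cultures: control 5, TGF-beta 4, CM 4 and CM with neratinib 4. The deposited values are expected counts per gene, 1 table per library, which the authors made with Salmon 1.4.0, per the submitters' processing notes, which also name DESeq2 and the builds GRCm38 and mm10. Of the values above 0, 74.8% were not whole, and they were rounded. Rounding changed no total by more than 307.9 counts. Symbols were matched for 35437 of 35896 identifiers, and 459 had none.

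Genes were filtered with edgeR's filterByExpr (minimum count 10, minimum total 15), scaled by TMM and fitted in edgeR 4.0.16 (R 4.3.3) by the quasi-likelihood method, with terms for group and cell line over all 17 libraries. Adjusted p-values are Benjamini-Hochberg over 13923 genes, with 0.05 as the threshold. A standard error is the log2 fold change divided by the square root of F. CPM uses TMM-scaled totals. Paralog ratios are differences of log2 CPM within a library, computed from the counts plus a prior count of 2 scaled to library size, with exact permutation tests. The biological coefficient of variation was 19.8%. The fit was tested on simulated data. Gene lists are described by counts and medians, with no set test. Named are the 8 genes always, the 2 genes nearest in profile to each, and from each list the called genes, or the 2 that rose and the 2 that fell most where more than 4 were called. The E protein and Id genes were all given, chosen after their values were seen. The values of 1 listed gene are not reported here. The 8 genes, the lists and the tests were chosen with earlier results of these data known.

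Replicate numbers mark a passage in the labels: 23, 24 and 25 in PSC4, 27 and 28 in PSC5. The 22 pairs of libraries of different groups with the same line and number all had deviations from their group means that correlated above 0.1 (0.12 to 0.635, median 0.299), against 14 of 32 pairs of the same line with different numbers (median -0.0756). Among the pairs with different numbers, those of PSC4 replicate 1 with PSC4 replicate 2 or 3 were all negative (-0.536 to -0.181). Pairs of PSC4 replicate 2 with replicate 3 correlated at 0.45 to 0.613. The check thus sets the PSC4 replicate 1 libraries apart and does not show that the numbers pair the libraries. A fit with line and number as a replicate block was run as another setting. Other settings were DESeq2, other size factors, other filters, no line term, only the compared groups, other treatment of PSC4 replicate 1, and each library left out.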

Additional observations from a re-analysis of the deposited data

Results flagged for a closer look

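Snai2 in TGF-beta had 1 library far below the others: PSC5 replicate 2 at 31.7 CPM, with the other 3 at 47.6 CPM or more. It was the 1 group set apart in this way among 32 (8 genes in 4 groups), and chance gives about 1 in 20. Without it, the difference of Snai2 between TGF-beta and control was -0.31 and was not called (adjusted p = 0.089, edgeR).

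Zeb1 differed between CM with neratinib and CM in opposite directions in the 2 lines, higher with neratinib in PSC4 and lower in PSC5. The difference between the lines was -0.26 on the log2 scale (SE 0.117), with an unadjusted p of 0.046 and an adjusted p of 1 in edgeR's test of that difference.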

How the results depend on the processing

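Calls of Snai1, Zeb1, Twist2, Prrx1 and Prrx2 in TGF-beta against control, of Snai2 and Prrx1 in CM against control, and of Snai2 and Prrx2 in CM with neratinib against control held in all 19 settings run for each. With 1 library left out, the number of the 8 genes called was 5 to 6 in TGF-beta, 2 to 4 in CM and 3 to 4 in CM with neratinib, each against control, 0 to 1 for neratinib against CM, 4 to 5 for CM against TGF-beta, 0 to 2 between lines, and 12 to 14 for the paralog ratios. Without the cell line term it was 3 in CM against control and 0 for neratinib against CM, and 0 for the latter with only the 2 groups compared in the model. Between lines it was 3 when PSC4 replicate 1 was taken as PSC5 or removed. The cause of these moves was not tested.

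With the replicate block the paralog ratios gave 0 calls, which the number of pairs fixes. The block added Twist1 and Zeb2 in TGF-beta (8 called) and Zeb2 in CM with neratinib (5 called), and changed no other call of the 8 genes in the 5 comparisons of groups.

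Differences near 0 changed sign in some settings, and their cause was not tested. Twist2 in CM with neratinib against control was -0.0416 with upper-quartile factors and -0.0112 without the line term. Twist1 in CM against TGF-beta was 0.0037 with the block and 0.00461 with PSC4 replicate 1 removed, and the Snai1 to Snai2 ratio there was 0.106 and 0.148. With PSC4 replicate 1 counted with PSC5, the line differences of Snai1 and Zeb1 were -0.0547 and 0.00334. The TGF-beta response differed between lines by -0.01 for Twist2 and -0.0148 for Prrx1 (-0.0102 without a filter), the CM response by 0.0291 for Snai2 and -0.128 for Twist1, and the neratinib response by -0.0578 for Twist1 and -0.417 for Prrx2. With those libraries removed, Twist1 gave -0.0852 for CM and -0.00845 for neratinib.

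With 1 library left out, the sign of the following differences also changed, and the ranges cover all such fits. For neratinib against CM they were -0.238 to 0.174 (Snai1), -0.0576 to 0.126 (Twist1), -0.139 to 0.0129 (Zeb1), -0.131 to 0.131 (Zeb2) and -0.198 to 0.109 (Zeb1 to Zeb2 ratio). For CM with neratinib against control they were -0.0193 to 0.343 (Snai1) and -0.0356 to 0.0699 (Twist2). For CM against TGF-beta they were -0.0263 to 0.327 (Prrx2) and -0.269 to 0.148 (Snai1 to Snai2 ratio), and between lines -0.0911 to 0.00942 (Zeb1) and -0.0971 to 0.0321 (Zeb2). Between 4 or 5 libraries a group, small differences in the least abundant gene, Prrx2, were not detectable.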
